A study of Homo sapiens with 6 samples.

Results

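Autosomal germline genes, 42 in number, were read on arrays of HEK293 cells, a long-established human embryonic kidney line. The genes act in meiosis, in the piRNA pathway and in the early germ line, or belong to the PRAME and MAGE families. A gene was counted as measured where a probe set names it alone, which held for 41 of the 42 genes on 42 probe sets, out of 18377 genes named alone on the whole array. They lie on 16 chromosomes. SOHLH2, a transcription factor of early germ cells, was found only on a probe set shared with the CCDC169-SOHLH2 readthrough and is described apart. For CTCFL, which has 2 probe sets of its own, the one with the larger mean signal was used.

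HEK-BAHD1 cells carry 1 copy of the BAHD1 cDNA driven by the CMV promoter, and BAHD1 is a chromatin protein that takes part in gene repression. The control cells, HEK293-CT, have a β-galactosidase insert instead, placed out of frame according to the labels, whereas the paper describes an empty vector. Both were made from HEK293 cells engineered with a single FRT integration site and were kept in Hygromycin B. Each line is a stable pool of transfectants grown in separate flasks, with 3 arrays per line, so p-values reflect how far cultures of the same pool differ. According to the supplement, HEK-BAHD1 replicate 2 was extracted at a later passage than the control and HEK-BAHD1 replicate 1. It gives no passage for a replicate 3, and a part of passage in the differences was not tested. Precision is limited by the 3 arrays of each line. The deposited values are log2 signals of whole genes. In such bulk RNA, fewer cells that express a gene and less of its RNA per cell cannot be told apart.

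In body cells, genes of the germ line are kept silent by several layers of repression. The PRC1.6 complex binds many of their promoters through the E-box factors MGA and MAX and through E2F6 with its partner DP1, DNA methyltransferases methylate the CpG sites of these promoters, and enzymes that methylate histone H3 at lysine 9 act there too. In germ cells the same genes serve meiosis, when homologous chromosomes pair along the synaptonemal complex and exchange DNA, and the piRNA pathway, in which small RNAs bound to PIWI proteins silence transposons. Some of them, called cancer-testis genes, are expressed again in tumours and in cell lines.

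BAHD1 itself was read first as a check on the labels. It averaged a log2 signal of 6.84 on the arrays labelled HEK-BAHD1 and 9.93 on those labelled HEK293-CT, a log2 fold change of -3.10 (limma, adjusted p = 3.12e-05, standard error 0.093). The overexpressed gene was thus lower on the arrays that carry its name, which goes against the labels. Every direction below is that of the labels as deposited and would turn round if the labels were exchanged. In the study, RT-qPCR and immunoblots, not analysed here, had BAHD1 higher in HEK-BAHD1 cells, the opposite of these arrays and the way the labels run. Whether the array labels are right was not tested.

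Most germline genes lay at low signal in both lines. Of the 41, 5 had a mean over the 6 arrays above 6, the level taken here as background: MAGEF1, PRAME, CTCFL, NANOS1 and NANOS3. That is 12.2% of the genes, while 55.5% of all tested probe sets lay above 6. The other 36 lay at or under it, and 27 of the 41 lay under 4, as did 17.6% of the tested probe sets. The median of the genes' mean signals was 3.48, against 6.44 for all tested probe sets. Averaged over the 36 genes at or under background, the log2 signal was 3.62, 3.62 and 3.58 on the arrays labelled HEK-BAHD1 and 3.65, 3.61 and 3.66 on those labelled HEK293-CT, which overlap. Probe sets differ in how well their probes bind, so these levels describe the list and do not rank its genes.

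A gene was called where limma's adjusted p was under 0.05 (Benjamini-Hochberg over 21062 probe sets) and the group medians differed by more than 0.2 on the log2 scale. On the arrays labelled HEK-BAHD1, PRAME was called higher, TEX14, TEX101 and SMC1B were called lower, and 37 genes were not called. The 4 calls are 9.76% of the 41 genes, and 13.2% of all tested probe sets were called. The order of these shares was not stable: without HEK293-CT replicate 3 they were 7.32% and 6.59%, and after quantile normalization again 14.6% and 13.1%. Without any one HEK-BAHD1 array, PRAME was the sole gene called, 2.44% of the 41. Of all tested probe sets, 7.49%, 8.42% and 7.36% were called without HEK-BAHD1 replicate 1, 2 or 3, fewer than with all 6 arrays. By direction, 1 of 41 was called higher where 6.79% of all tested probe sets were, and 3 of 41 were called lower where 6.39% were. All 3 genes called lower lay under background in both lines. Among genes at or under background, 3 of 36 or 8.33% were called, against 5.84% of all tested probe sets in that range, and of the 5 above it 1 was called, where 19.1% of such probe sets were. The median log2 fold change was -0.0033 over the 41 genes and 0.0033 over all tested probe sets, with a median size of 0.083 for the genes and 0.11 for all.

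The 2 groups of arrays did not overlap for 7 of the 41 genes, or 17.1%, whereas they did not overlap for 33.6% of all tested probe sets. PRAME and MAGEF1 were above on the arrays labelled HEK-BAHD1, and TEX14, TEX101, SMC1B, NANOS3 and SYCP1 were below. Without adjustment, 7 of the 41 had a limma p under 0.05, 3 with a larger and 4 with a smaller mean in HEK-BAHD1. The share of all tested probe sets at this unadjusted threshold was not computed, so the count does not set these genes apart. It is above the 13.2% that were called, since every called probe set passes this looser threshold too, as do some not called. Means were larger in HEK-BAHD1 for 19 genes and smaller for 21, and for MEIOB they were equal.

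**Figure D1:**
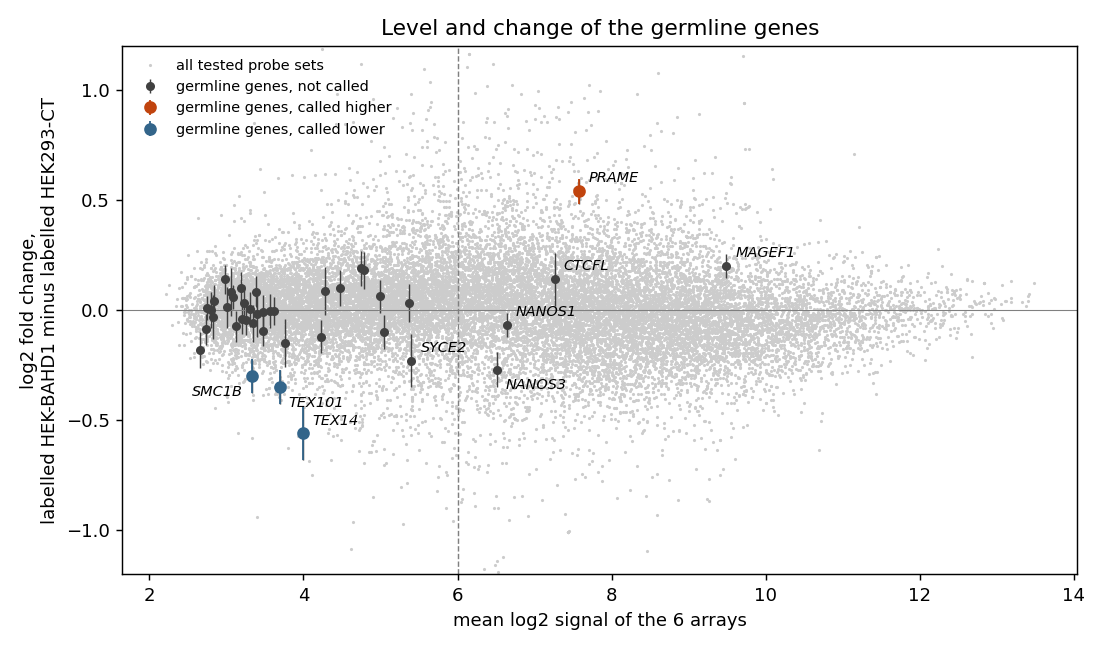
Log2 fold change of each germline gene (vertical axis, arrays labelled HEK-BAHD1 minus arrays labelled HEK293-CT; bars are the standard error from limma) against its mean log2 signal on the 6 arrays (horizontal axis), with all 21062 tested probe sets in grey and the background level of 6 as a dashed line; 30 tested probe sets lie outside the vertical range. Of the 41 genes 36 lie left of the line, PRAME stands at 0.54 on the right, and TEX14, TEX101 and SMC1B lie below 0 on the left.

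PRAME, a cancer-testis antigen and leucine-rich repeat protein, had log2 signals of 7.81, 7.89 and 7.86 on the arrays labelled HEK-BAHD1, against 7.31, 7.26 and 7.37 on those labelled HEK293-CT. Every HEK-BAHD1 array lay above every HEK293-CT array. The means were 7.85 ± 0.040 in HEK-BAHD1 and 7.31 ± 0.055 in HEK293-CT (SD, n = 3 each). The log2 fold change was 0.54 (limma, adjusted p = 0.0018, standard error 0.056), and the call was kept under all 16 alternatives, with log2 fold changes from 0.503 to 0.568.

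MAGEF1, a MAGE family gene that is expressed in many tissues, had log2 signals of 9.54, 9.57 and 9.66 in HEK-BAHD1 and 9.41, 9.37 and 9.39 in HEK293-CT. Here too the groups did not overlap, but the gene was not called, with a log2 fold change of 0.20 (limma, adjusted p = 0.0525, standard error 0.055) and a difference of medians of 0.18. When the arrays were quantile normalized again, it passed (0.245, adjusted p = 0.0337).

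The 3 genes called lower lay far under the background level in both lines, so they are given as differences of log2 signal rather than as folds of expression. TEX14, needed for the bridges that join dividing germ cells, had 3.77, 3.71 and 3.64 in HEK-BAHD1 and 4.11, 4.55 and 4.15 in HEK293-CT. The groups did not overlap, and HEK293-CT replicate 2 lay above the other arrays. The difference was -0.56 (limma, adjusted p = 0.0205, standard error 0.12). The adjusted p was 0.0506, 0.0579 and 0.0723 without HEK-BAHD1 replicate 1, 2 or 3, so the call was lost without any one of these arrays.

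TEX101, a surface protein of male germ cells, had 3.45, 3.52 and 3.57 in HEK-BAHD1, against 3.99, 3.87 and 3.72 in HEK293-CT. All HEK-BAHD1 arrays lay below all HEK293-CT arrays. The difference was -0.35 (limma, adjusted p = 0.028, standard error 0.078). The call was lost without HEK-BAHD1 replicate 1, 2 or 3 (adjusted p = 0.0852, 0.0708 and 0.0593), without HEK293-CT replicate 1 or 2 (0.072 and 0.0746), with the replicate number as a block (0.0663), and with LPE, the local-pooled-error test named in the study's methods (0.11).

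SMC1B, the meiotic version of the cohesin subunit SMC1, had 3.23, 3.22 and 3.08 in HEK-BAHD1 and 3.34, 3.53 and 3.56 in HEK293-CT. The groups did not overlap, with HEK-BAHD1 replicate 3 lowest. The difference was -0.30 (limma, adjusted p = 0.0432, standard error 0.078). The call was lost without HEK-BAHD1 replicate 1, 2 or 3 (adjusted p = 0.0789, 0.081 and 0.121), without HEK293-CT replicate 2 or 3 (0.115 and 0.131), with the block (0.0856), with LPE (0.147) and when all probe sets were tested (0.068).

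**Figure D2:**
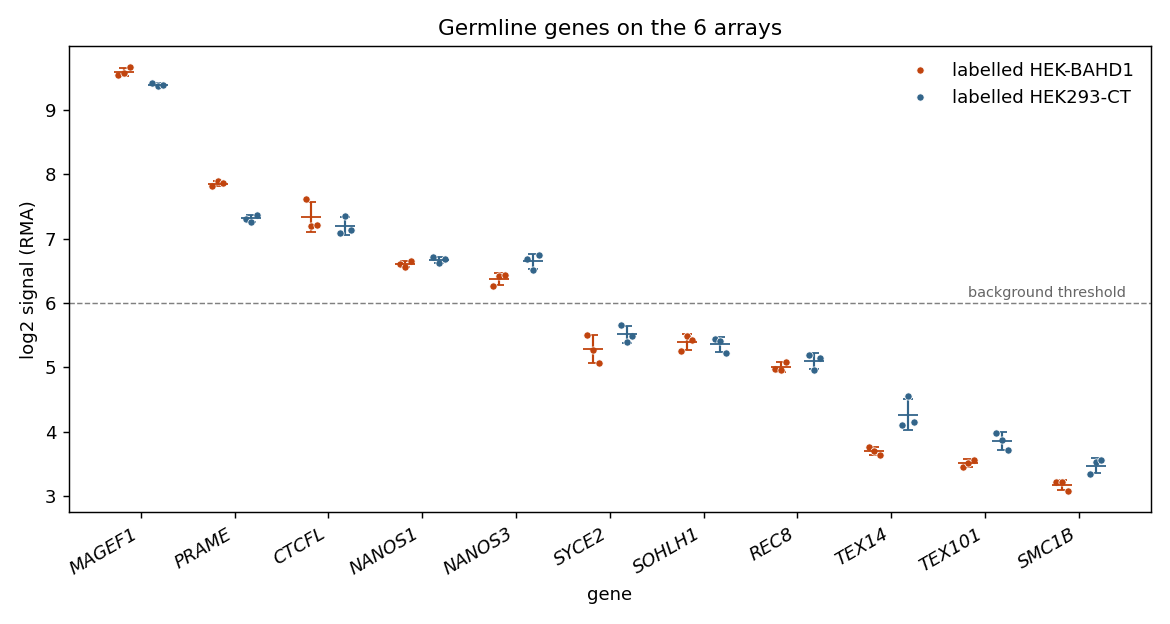
Log2 signal (vertical axis) of the 5 germline genes above background, the 3 called lower and the 3 with the largest mean at or under background, on each array; points are arrays, horizontal ticks with bars give mean ± SD of 3 arrays, with HEK-BAHD1 left of HEK293-CT for each gene. The PRAME arrays labelled HEK-BAHD1 lie between 7.81 and 7.89, all above those labelled HEK293-CT, and TEX14, TEX101 and SMC1B lie far under the dashed level of 6.

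The sequences before the transcription starts are shown because DNA methylation and the PRC1.6 factors act on CpG sites and short motifs there. The 250 bases before each start were taken from RefSeq (GRCh38.p14), which gave 51 promoters for 36 of the 41 genes. The genes with no match were TEX14, HORMAD1, MEIOB, PIWIL2 and PIWIL4. Sequences are printed for PRAME, MAGEF1, TEX101 and SMC1B and for BRDT, a bromodomain protein of the testis, as an example with an E-box. Where a gene has several starts, the outermost is shown, and the stretch of SMC1B is limited to the 93 bases that lie before the RIBC2 gene begins. They run 5′ to 3′ on the strand of the gene, and capitals mark CpG:
PRAME (chr22:22559266-22559515, minus strand): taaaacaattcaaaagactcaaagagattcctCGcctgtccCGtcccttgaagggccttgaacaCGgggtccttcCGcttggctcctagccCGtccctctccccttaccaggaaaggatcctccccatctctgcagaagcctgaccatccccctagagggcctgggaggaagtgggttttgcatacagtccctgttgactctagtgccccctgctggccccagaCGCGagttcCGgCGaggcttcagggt
MAGEF1 (chr3:184712065-184712314, minus strand): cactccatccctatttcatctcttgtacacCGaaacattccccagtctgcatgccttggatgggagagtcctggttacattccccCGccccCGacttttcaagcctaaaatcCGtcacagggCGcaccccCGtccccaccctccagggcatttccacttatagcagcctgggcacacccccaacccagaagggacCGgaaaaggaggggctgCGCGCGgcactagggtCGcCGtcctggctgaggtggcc
TEX101 (chr19:43388361-43388610, plus strand): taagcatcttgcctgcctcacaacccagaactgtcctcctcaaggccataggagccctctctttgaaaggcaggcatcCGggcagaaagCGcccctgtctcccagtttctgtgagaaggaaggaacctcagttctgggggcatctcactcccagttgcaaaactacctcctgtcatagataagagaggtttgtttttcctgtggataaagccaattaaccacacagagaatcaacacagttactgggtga
SMC1B (chr22:45413600-45413692, minus strand): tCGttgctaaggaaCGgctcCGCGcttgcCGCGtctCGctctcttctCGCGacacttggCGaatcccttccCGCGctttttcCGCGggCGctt
BRDT (chr1:91949121-91949370, plus strand): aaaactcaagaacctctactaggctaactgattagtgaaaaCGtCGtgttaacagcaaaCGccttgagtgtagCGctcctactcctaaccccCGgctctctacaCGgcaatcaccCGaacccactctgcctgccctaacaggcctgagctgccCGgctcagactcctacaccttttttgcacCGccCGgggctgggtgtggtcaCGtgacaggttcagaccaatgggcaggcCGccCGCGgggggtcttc

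These stretches hold 9 CpG for PRAME, 12 for MAGEF1, 2 for TEX101, 15 in the 93 bases of SMC1B (29 in 250 bases) and 14 for BRDT. The 250 bases before the starts not printed hold 15 for TEX101, 8 and 4 for PRAME and 19 for BRDT. Over the 51 promoters the median was 19, against 11 over all 35116 promoters of the table, and the range ran to 0 for DDX4 and to 51 for MAEL. The letters CACGTG, the E-box that reads the same on both strands, occurred in 11 of the 51 (21.6%, 9 genes), against 6.34% of all promoters of that length. The letters GCGGGAA, an E2F motif searched on both strands as GCGGGAA or TTCCCGC, occurred in 9 of the 51 (17.6%, 8 genes), against 5.52% of all. The 2 motifs can share at most 1 base at their ends, and 15 genes held at least 1 of them. BRDT holds the E-box, as do DAZL, MAEL, STAG3, SOHLH1, SYCE1, TDRD1, TDRD5 and TDRD12. SMC1B holds the E2F motif (as TTCCCGC) within the stretch printed, and so do the promoters of ASZ1, REC8, RPL10L, SPO11, STAG3, SYCE1 and SYCP2. PRAME, MAGEF1 and TEX101 held neither in this window. A match is a description of letters, not of a bound site. Each motif contains a CpG, and the part of CpG number in these shares was not tested. Windows of nearby starts overlap, as for BRDT and TDRD1, so the same letters can count more than once.

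Of 5 genes of RNA binding and translation, none was called (lowest adjusted p = 0.0603, from limma). NANOS3, which keeps germ cell precursors alive, had log2 signals of 6.26, 6.42 and 6.44 in HEK-BAHD1 and 6.68, 6.52 and 6.74 in HEK293-CT. The groups did not overlap, and the log2 fold change was -0.27 (adjusted p = 0.0603, standard error 0.079). It was called lower without HEK293-CT replicate 2 (adjusted p = 0.0478) and under 5 other alternatives. NANOS1, a translational repressor of the same family, had 6.60, 6.56 and 6.65 in HEK-BAHD1 and 6.71, 6.62 and 6.68 in HEK293-CT, which overlap (log2 fold change -0.067, adjusted p = 0.481). DAZL and BOLL, which regulate translation in germ cells, and RPL10L, a ribosomal protein of the testis, had means of 4.47, 3.19 and 4.79 and differences of 0.10, 0.10 and 0.18.

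The 7 genes of the chromosome axis and synaptonemal complex lay between 2.66 and 5.40, and their differences lay between -0.23 and 0.14. SYCE2, a protein of the central element, had 5.51, 5.27 and 5.07 in HEK-BAHD1 and 5.66, 5.40 and 5.49 in HEK293-CT. The groups overlapped, with a difference of -0.23 (limma, adjusted p = 0.238, standard error 0.12). SYCP1, which forms the transverse filaments, had 2.50, 2.61 and 2.61 in HEK-BAHD1 and 2.62, 2.73 and 2.91 in HEK293-CT, with no overlap and an adjusted p of 0.195. SYCP2 and SYCP3, lateral element proteins, had differences of -0.093 and 0.14, and SYCE1, HORMAD1 and HORMAD2 had -0.010, -0.087 and 0.013.

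Besides SMC1B, the meiotic cohesin subunits were not called. REC8, the meiotic kleisin, had 4.97, 4.96 and 5.09 in HEK-BAHD1 and 5.20, 4.96 and 5.15 in HEK293-CT, with a difference of -0.10 (adjusted p = 0.467 from limma). The arrays of both lines overlapped. RAD21L1, the other meiotic kleisin, and STAG3, the meiotic STAG subunit, had differences of 0.083 and 0.063. A probe set of STAG3 shared with its STAG3L copies had a mean of 8.11 and a log2 fold change of -0.28 (adjusted p = 0.107), and its signal could not be split between the copies. A probe set shared by RAD21L1 and SNPH had a log2 fold change of 0.07.

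Of 4 recombination genes, none was called. MEI1 had a difference of -0.12, SPO11, which makes the DNA breaks, 0.010, and DMC1, the meiotic strand exchange protein, 0.087. MEIOB, which binds single-stranded DNA, had equal means in both lines. The lowest adjusted p among these was 0.353.

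The 11 genes of the piRNA pathway lay between 2.84 and 4.75, all under background. TDRD12, a Tudor protein, had 4.98, 4.81 and 4.76 in HEK-BAHD1 and 4.76, 4.57 and 4.64 in HEK293-CT. The lowest HEK-BAHD1 array equalled the highest HEK293-CT array, and the difference was 0.19 (adjusted p = 0.152 from limma). PIWIL4, a PIWI protein of the nucleus, had a difference of -0.15, and the others ranged between -0.073 for TDRD1 and 0.083 for TDRD5. Among these, PIWIL1 and PIWIL2 had differences of -0.020 and -0.003, MOV10L1, a helicase of piRNA production, -0.003, and the helicase DDX4 -0.047.

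Of the 6 genes of transcription and chromatin, CTCFL, a testis paralogue of CTCF, lay above background. Its log2 signals were 7.61, 7.19 and 7.21 in HEK-BAHD1 and 7.09, 7.35 and 7.14 in HEK293-CT. The groups overlapped, with HEK-BAHD1 replicate 1 highest, and the log2 fold change was 0.14 (limma, adjusted p = 0.503, standard error 0.12). The second probe set of the gene lay at 3.65, 3.73 and 3.81 in HEK-BAHD1, against 3.63, 3.42 and 3.56 in HEK293-CT, a difference of 0.19 (adjusted p = 0.129). Of these sets, the first alone lay above background. A further probe set shared with SP100 and HMGB1 had a mean of 11.87 and a log2 fold change of 0, and its signal could not be split between the genes. SOHLH1, an early germ cell transcription factor, had 5.25, 5.49 and 5.43 in HEK-BAHD1, against 5.44, 5.41 and 5.22 in HEK293-CT, which overlap (0.033, adjusted p = 0.843). BRDT, DPPA2, DPPA4 and ZSCAN4 had differences of -0.040, -0.030, 0.003 and 0.060.

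The shared SOHLH2 probe set had 6.30, 6.30 and 6.34 in HEK-BAHD1 and 6.23, 6.46 and 6.07 in HEK293-CT. Its log2 fold change was 0.06 (adjusted p = 0.731 from limma). Counting it would leave the calls as they are and give 6 genes above background.

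Genes next to the called ones in the GRCh38 order were read after the values of the members were known. SMC1B and RIBC2 face away from each other on opposite strands, with starts 94 bases apart. RIBC2, a protein of ciliary microtubules, had 6.11, 6.22 and 5.94 in HEK-BAHD1 and 6.32, 6.47 and 6.44 in HEK293-CT. All HEK-BAHD1 arrays lay below all HEK293-CT arrays, with a log2 fold change of -0.32 (limma, adjusted p = 0.0434, standard error 0.083). That call was lost under 8 of 16 alternatives, including without HEK-BAHD1 replicate 1 or 3 (adjusted p = 0.0957 and 0.099) and without HEK293-CT replicate 1, 2 or 3 (0.0603, 0.116 and 0.12). FBLN1, next beyond RIBC2, was called higher at 0.85 (adjusted p = 0.00132), and FAM118A on the other side was not called.
Of 4 neighbours of TEX14, MTMR4 was called higher at 0.38 (adjusted p = 0.00494) and RAD51C, a recombination protein, was at -0.20 (adjusted p = 0.0543). Of 4 neighbours of TEX101, LYPD3 was called higher at 0.22 (adjusted p = 0.0365), a call lost under 12 of 15 alternatives, and without any one of the 6 arrays (adjusted p up to 0.118). No neighbour of PRAME was called. For comparison, 13.2% of all tested probe sets were called, and 19.1% of those above background, so called neighbours are not set apart from other genes.

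Another 55 genes of the same processes, 48 of them measured, were read beside the members. Of the 48, 9 lay above background, 1 was called higher and 2 lower, with a median log2 fold change of 0.005. The calls are 6.25% of the 48, against 13.2% of all tested probe sets. By level, 5.84% of tested probe sets at or under background and 19.1% of those above it were called. Of the called genes, PSMC3IP and TEX15 lay above background and PRDM1 under it. At an unadjusted p under 0.05, 6 were higher and 6 lower. The share of all tested probe sets at that threshold is above the 13.2% called and was not computed. PSMC3IP, a partner of DMC1, had 9.50, 9.64 and 9.56 in HEK-BAHD1, against 9.93, 9.90 and 9.96 in HEK293-CT. The groups did not overlap, the log2 fold change was -0.36 (limma, adjusted p = 0.00854, standard error 0.058), and the call was kept under all 16 alternatives.
TEX15, needed for meiotic recombination and transposon silencing in mice, had 6.76, 7.08 and 6.65 in HEK-BAHD1 and 6.41, 6.47 and 6.42 in HEK293-CT, with HEK-BAHD1 replicate 2 highest. The log2 fold change was 0.40 (adjusted p = 0.0468), and the call was lost without HEK-BAHD1 replicate 1 or 2 (0.0855 and 0.0545) and without HEK293-CT replicate 1, 2 or 3 (0.117, 0.0954 and 0.118). PRDM1, a repressor that specifies germ cell precursors, was called lower at -0.31 under background in both lines (adjusted p = 0.0416), a call lost without HEK-BAHD1 replicate 1, 2 or 3 (0.115, 0.109 and 0.0558) and without HEK293-CT replicate 2 or 3 (0.113 and 0.127). MYBL1, the transcription factor that switches on meiotic and piRNA genes, was not called at -0.31 (adjusted p = 0.0669).

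Of 24 repressors known to silence germline genes, 23 were measured and all lay above background. None was called higher and 4 were called lower, 17.4% of them, against 19.1% of all tested probe sets above background. At an unadjusted p under 0.05, 2 were higher and 6 lower. Of tested probe sets above background, more than the 19.1% called pass that threshold, and their share was not computed, so the count does not set the repressors apart. By LPE as well, 0 were called higher. ATF7IP, a partner of the H3K9 methyltransferase SETDB1, had 9.53, 9.63 and 9.40 in HEK-BAHD1 and 9.93, 9.88 and 9.90 in HEK293-CT. Every HEK-BAHD1 array lay below every HEK293-CT array, with a log2 fold change of -0.38 (adjusted p = 0.0128 from limma).
PCGF6, the subunit that defines PRC1.6, had 8.78, 8.75 and 8.86 in HEK-BAHD1 and 9.18, 9.23 and 9.10 in HEK293-CT, again without overlap. The log2 fold change was -0.37 (adjusted p = 0.00894), and its second probe set gave -0.17 (adjusted p = 0.169). The calls of ATF7IP and PCGF6 were kept under all 16 alternatives.
DNMT1, the maintenance DNA methyltransferase, had 9.90, 9.98 and 10.06 in HEK-BAHD1 and 10.31, 10.16 and 10.28 in HEK293-CT, which do not overlap. Its log2 fold change was -0.27 (adjusted p = 0.0384), and the call was kept under 8 of 16 alternatives. It was lost without HEK-BAHD1 replicate 1, 2 or 3 (0.107, 0.0911 and 0.0522) and without HEK293-CT replicate 1 or 3 (0.112 and 0.116). MBD1, which binds methylated DNA, was at -0.31 (adjusted p = 0.012), lost without HEK293-CT replicate 3 (0.0504). DNMT3A, a de novo DNA methyltransferase, was at 0.20 (adjusted p = 0.0392), with a difference of medians of 0.19, under the threshold. MGA, E2F6 and L3MBTL2, subunits of PRC1.6, were at -0.11, -0.09 and -0.013 and were not called.

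**Figure D3:**
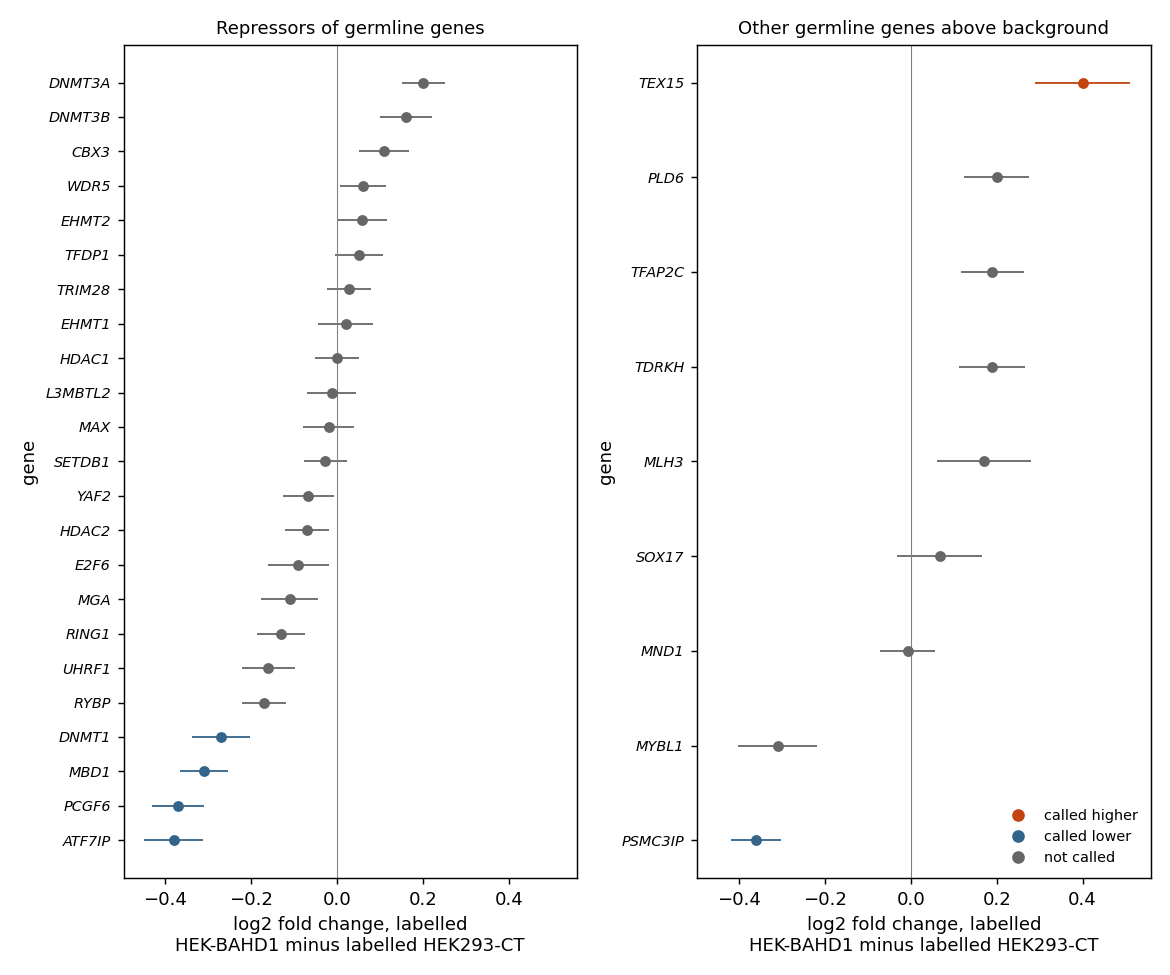
Log2 fold change (horizontal axis, arrays labelled HEK-BAHD1 minus arrays labelled HEK293-CT) of the 23 measured repressors of germline genes and of the 9 other germline genes above background; bars are the standard error from limma, and colour marks the call. ATF7IP and PCGF6 lie furthest below 0 among the repressors, at -0.38 and -0.37, and TEX15 furthest above 0 among the germline genes, at 0.40.

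Markers of the labelled cells and of other cells were read on the same arrays. Of 10 markers of HEK293, 6 lay above background, while 4, among them the kidney factors PAX2, PAX8 and LHX1, did not. NEFL was called higher in HEK-BAHD1 (0.40), as was NEFM, which lay under background (0.77), and VIM was called lower (-0.28). By their means, 6 of the 10 were higher and 4 lower. The summed log2 signal ran between 79.14 and 79.80 in HEK-BAHD1 and between 78.15 and 78.88 in HEK293-CT. Among markers of germ or pluripotent cells, UTF1, KIT and TFAP2C lay above background and LIN28A did not. POU5F1 and NANOG, listed with them, had no probe set of their own. The sums ran from 26.16 to 26.58 in HEK-BAHD1 and from 25.74 to 25.86 in HEK293-CT. They do not overlap, and those of the HEK293 markers do not either. None of the 4 was called. UTF1, KIT and TFAP2C had log2 fold changes of 0.21, 0.24 and 0.19, the direction of PRAME (limma, adjusted p = 0.114, 0.0974 and 0.126). Each had an unadjusted p under 0.05, a threshold that more than the 13.2% of all tested probe sets called also pass. LIN28A was at -0.03, and for KIT the lowest HEK-BAHD1 array equalled the highest HEK293-CT array. The part of these markers in the PRAME result was not tested. None of 4 spermatid markers lay above background. Their sums of 16.90 to 17.25 in HEK-BAHD1 and 16.76 to 16.89 in HEK293-CT nearly touched, at 16.90 against 16.89. For each of these 4 genes alone the groups overlapped, and ACRV1 was lower in HEK-BAHD1 (-0.08). Taken singly, 33.6% of all tested probe sets had groups that did not overlap, so separate sums do not set these lists apart. Nor did any of 3 blood and endothelial markers lie above background, and of 5 markers of gonadal somatic cells AMH alone did. The sums of the blood and gonadal lists overlapped.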

How the data were processed

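Total RNA of 3 HEK-BAHD1 and 3 HEK293-CT cultures was hybridised to Affymetrix HuGene 1.0 ST arrays. Probe intensities were turned by the authors into the deposited log2 values with RMA, which corrects background, normalizes between arrays and summarises probes, so differences of dim probe sets may be compressed. The version of RMA and the genome build of the array annotation are not given in the sources used here. Array medians of the tested probe sets lay between 6.40 and 6.46.

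Of 28869 probe sets, 19310 named 1 gene, 1752 several and 7807 none. Identifiers were updated to GRCh38 through RefSeq, which held 19279 of the 19310. The 21062 probe sets naming a gene were fitted with limma 3.58.1 in R 4.3.3 (lmFit and eBayes, no block, two-sided, Benjamini-Hochberg), which was tested on simulated data. The threshold of 0.2 on the difference of medians follows the study's methods, and the background level of 6 belongs to the definition of the list. No level was set between probe sets of different genes.

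The members and lists were chosen with earlier results of these data known. Values were given for every gene above background or called, for the 3 genes with the largest mean at or under 6, and for called genes of the other lists, up to 6 each. Other single genes were named after their values were seen. Alternatives were the LPE test, other scalings, variance models, filters and thresholds, a block for the replicate number, and each array left out in turn.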

Additional observations from a re-analysis of the deposited data

How the results depend on the processing

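Of the 41 germline genes, 1 was called lower with LPE, 1 (NANOS3) when probe sets with a mean above 6 alone were tested, 1 without the dimmest 30% of probe sets, where TEX14, TEX101 and SMC1B were not tested, and 1 with the replicate number as a block, against 3 in the results above. The filters left 5 genes with a mean above 6 and 9 without the dimmest 30%. In either direction and in that order, 4.88%, 40.0%, 22.2% and 4.88% of the genes tested were called. The shares of all tested probe sets were 13.7%, 24.5%, 21.3% and 8.5%. Leaving out single arrays gave 0 to 2 called lower, with 0 without any one HEK-BAHD1 array. After quantile normalization again, 2 were called higher, MAGEF1 and PRAME, and 4 lower. With centred arrays and with an intensity trend, 4 were called lower as well. Among those with a mean above 6 the median log2 fold change was 0.14. With 5 or 7 as the background level, 8 or 3 genes lay above it.

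Of the other germline genes, 2 were called higher with LPE, and 0 with all probe sets tested, with arrays centred on their medians or after quantile normalization again. Called lower were 1 with all probe sets, 4 with centred arrays and 4 with an intensity trend. Leaving out single arrays gave 0 to 1 higher and 1 to 3 lower. Of the repressors, 1 (DNMT3A) was called higher on the adjusted p alone, and 2 to 4 were called lower without single arrays, with 2 without HEK293-CT replicate 3.

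NANOS3 was called lower with centred arrays (-0.31, adjusted p = 0.029), an intensity trend (0.0442), means above 6 alone (0.0223), quantile normalization again (0.0258), and without the dimmest 30% (0.0348), all from limma.

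Over all tested probe sets, centring gave 1125 higher and 1912 lower, against 1430 and 1345 without it. Leaving out single arrays gave 806 to 938 higher and 581 to 937 lower. Replicate numbers did not pair the arrays (correlations of deviations -0.0772, 0.0744 and -0.0384 for replicates 1, 2 and 3), and the block gave 962 higher and 829 lower. The cause of these changes was not tested. Of 346 pairs of a result and an alternative, 283 kept the result, 18 lost a call, 7 gained one, and 38 moved by more than the limit set for them. No call changed direction, but the sign of values that were not called or not tested turned in 9 pairs, 4 for SOHLH1 (-0.035 to -0.003, against 0.033) and 5 for the median of the germline genes (0.01 to 0.14, against -0.0033).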
